A study of Mus musculus with 60 samples.

Results

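The immunoglobulin variable (V) segments are 216 of the 52636 gene rows of a mouse RNA-seq count table, taken as every gene of biotype IG_V_gene whose symbol starts with Ighv, Igkv or Iglv. They are 113 heavy chain segments (Ighv, chromosome 12, 16 families), 100 kappa light chain segments (Igkv, chromosome 6, 20 families) and 3 lambda light chain segments (Iglv, chromosome 16). All 216 have a row, 213 had at least 1 count in some library, and 3 Ighv segments had none. The 60 libraries cover spleen, lung, liver, kidney, skeletal muscle and skin, with 10 libraries of each tissue in 3 groups. The first group, 4F-induced old, has 3 libraries per tissue from mice of 26 months whose 4 reprogramming factors (Oct4, Sox2, Klf4 and c-Myc) were switched on by doxycycline at 1 mg/ml in the drinking water, 2 days on and 5 days off each week, for 1 month from 25 months of age. The second group, untreated old, has 3 libraries per tissue from mice of 26 months that drank no doxycycline. The third group, young, has 4 libraries per tissue from untreated mice of 3 months. Mice of every group carried 1 copy of the 4F cassette and 1 copy of the R26::rtTA transactivator on a C57BL/6 background, both sexes were present in each group, and no group received doxycycline without the cassette. The transactivator sits at the Rosa26 locus, which is active in most tissues.

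A V segment is one of many alternative gene pieces that a developing B cell joins, once and by DNA rearrangement, to make the variable end of an antibody chain. A B cell usually expresses 1 heavy chain V segment and 1 light chain V segment, its descendants keep them, and plasma cells transcribe them at very high levels. The spread of counts over segments in a tissue therefore reads out the make-up of its antibody RNA, weighted by the RNA each cell holds, and fewer cells and less RNA per cell cannot be told apart. Rearranged V segments acquire mutations in germinal centres, and reads of a mutated segment can be lost in alignment to the germline reference.

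The germline sequences of the segments that the results turn on follow, to show how far each leading segment can be told from its closest relative. Each run is the first 290 coding bases of the V exon, read 5′ to 3′ on the coding strand from GENCODE M21 (GRCm38). Capitals mark bases that differ from, or have no counterpart in, the most similar other member of the same locus, aligned end to end. Bases found only in the relative are not shown but lower the identity given below, so capitals can be fewer than the differences counted. Capitals at the end of a run can arise from the cut at 290 bases.
Ighv3-8: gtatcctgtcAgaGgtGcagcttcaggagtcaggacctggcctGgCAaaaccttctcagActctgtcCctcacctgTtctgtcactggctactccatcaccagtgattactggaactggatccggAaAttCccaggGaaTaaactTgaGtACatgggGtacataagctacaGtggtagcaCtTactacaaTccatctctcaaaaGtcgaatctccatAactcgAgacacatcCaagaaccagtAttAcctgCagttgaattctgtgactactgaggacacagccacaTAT
Ighv1-78: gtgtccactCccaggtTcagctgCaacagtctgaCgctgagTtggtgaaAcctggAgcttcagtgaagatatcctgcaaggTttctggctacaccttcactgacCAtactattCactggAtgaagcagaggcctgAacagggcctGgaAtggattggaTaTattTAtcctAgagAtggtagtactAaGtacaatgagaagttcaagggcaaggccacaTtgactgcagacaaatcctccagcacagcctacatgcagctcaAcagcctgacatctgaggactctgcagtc
Ighv1-76: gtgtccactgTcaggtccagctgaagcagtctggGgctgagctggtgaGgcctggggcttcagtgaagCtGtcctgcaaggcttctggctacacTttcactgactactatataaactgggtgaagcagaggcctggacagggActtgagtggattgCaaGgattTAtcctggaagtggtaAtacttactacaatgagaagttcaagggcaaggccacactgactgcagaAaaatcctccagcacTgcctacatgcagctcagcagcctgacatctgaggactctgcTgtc
Igkv14-111: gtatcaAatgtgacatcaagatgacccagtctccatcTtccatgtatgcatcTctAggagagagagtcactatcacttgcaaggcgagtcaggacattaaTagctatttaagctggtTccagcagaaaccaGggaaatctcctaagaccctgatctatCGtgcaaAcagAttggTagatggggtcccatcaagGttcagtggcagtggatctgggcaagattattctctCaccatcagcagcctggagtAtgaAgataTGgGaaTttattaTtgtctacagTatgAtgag
Igkv4-57-1: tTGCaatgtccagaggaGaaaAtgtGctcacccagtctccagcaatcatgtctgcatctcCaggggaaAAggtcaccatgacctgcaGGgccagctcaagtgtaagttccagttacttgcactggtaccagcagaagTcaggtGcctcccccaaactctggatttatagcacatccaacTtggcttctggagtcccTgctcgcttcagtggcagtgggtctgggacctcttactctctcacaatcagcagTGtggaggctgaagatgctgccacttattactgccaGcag
Igkv5-39: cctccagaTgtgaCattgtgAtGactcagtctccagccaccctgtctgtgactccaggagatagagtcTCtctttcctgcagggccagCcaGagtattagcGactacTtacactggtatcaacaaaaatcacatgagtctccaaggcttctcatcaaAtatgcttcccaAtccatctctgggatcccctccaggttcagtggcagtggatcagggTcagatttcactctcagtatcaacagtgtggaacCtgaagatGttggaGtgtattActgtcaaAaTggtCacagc
Igkv3-2: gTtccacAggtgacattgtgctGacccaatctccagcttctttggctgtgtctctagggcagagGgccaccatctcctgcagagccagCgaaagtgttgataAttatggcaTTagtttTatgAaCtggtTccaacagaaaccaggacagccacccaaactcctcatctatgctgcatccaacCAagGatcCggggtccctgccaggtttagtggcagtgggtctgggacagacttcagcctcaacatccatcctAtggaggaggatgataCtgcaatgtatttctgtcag
Igkv6-20: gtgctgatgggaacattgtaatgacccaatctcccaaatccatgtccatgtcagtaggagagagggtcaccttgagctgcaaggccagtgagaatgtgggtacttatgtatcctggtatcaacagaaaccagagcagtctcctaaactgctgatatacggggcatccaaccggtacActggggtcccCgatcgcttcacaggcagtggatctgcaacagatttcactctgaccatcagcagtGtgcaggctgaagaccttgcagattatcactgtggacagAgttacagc
Iglv1: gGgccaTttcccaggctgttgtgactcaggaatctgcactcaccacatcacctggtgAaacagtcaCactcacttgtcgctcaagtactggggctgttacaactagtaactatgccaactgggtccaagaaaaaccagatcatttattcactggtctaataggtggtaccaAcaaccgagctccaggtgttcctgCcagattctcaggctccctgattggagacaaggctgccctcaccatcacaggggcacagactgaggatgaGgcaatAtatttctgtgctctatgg
The nearest relatives were Ighv3-6 for Ighv3-8 (87.2% identity), Ighv1-77 for both Ighv1-78 (89.7%) and Ighv1-76 (94.8%), Igkv14-126 for Igkv14-111 (91.7%), Igkv4-74 for Igkv4-57-1 (93.4%), Igkv5-45 for Igkv5-39 (92.4%), Igkv3-1 for Igkv3-2 (93.4%), Igkv6-29 for Igkv6-20 (98.6%) and Iglv2 for Iglv1 (97.2%). Over the whole family the median identity to the nearest member was 95.2% for Ighv and 94.6% for Igkv, and 2 Ighv segments were identical over these bases. Of the windows of 50 bases in Ighv3-8, Igkv14-111 and Igkv5-39, 100% occurred in no other member, against 90.9% in Ighv1-78, 79.7% in Ighv1-76, 79.3% in Igkv4-57-1, 76.3% in Igkv3-2 and 45.2% in Igkv6-20. Counts of segments with few such windows are uncertain, because reads from a near-identical copy can be split or dropped. The printed bases lie in coding exons on GRCm38. Those of the heavy chain segments are on the minus strand, at chr12:114322388-114322677 (Ighv3-8), chr12:115868788-115869077 (Ighv1-78) and chr12:115847896-115848185 (Ighv1-76). The kappa bases lie on the plus strand at chr6:68256572-68256861 (Igkv14-111) and chr6:70698758-70699047 (Igkv3-2). They lie on the minus strand at chr6:69544378-69544667 (Igkv4-57-1), chr6:69900432-69900721 (Igkv5-39) and chr6:70335849-70336138 (Igkv6-20), and those of Iglv1 on the minus strand at chr16:19085032-19085321.

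Library totals ran from 16699694 to 50698836 counts, and V segments took between 5 and 226992 counts of a library. B cell markers marked the spleens as lymphoid tissue, with a summed 2183 to 7490 CPM (counts per 1e6 library counts) over 12 genes, against at most 1492 CPM in any lung, 108 in any liver and 53.0 in any kidney. In spleen untreated old 2 the pancreatic transcripts Prss2 and Cela1 stood at 235 and 264 CPM, against at most 2.08 and 23.4 CPM in the other spleens. In skin untreated old 3 the B cell markers summed to 382 CPM, against at most 69.3 CPM in the other skins, and the liver transcript Alb stood at 7078 CPM. Without spleen untreated old 2 the mean V share of untreated old spleens was 5120 CPM and the mean number of segments detected 203, and its other values can be left out of the lists per library.

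The total share of V segments was highest in spleen and was far lower in lung, kidney and liver and lowest in muscle and skin (the plot of total share by tissue). In spleen it was 3900, 7743 and 2419 CPM of library counts in 4F-induced old, 1712, 3310 and 8528 CPM in untreated old, and 6061, 5049, 5411 and 6948 CPM in young. The means were 4687 ± 2748 CPM (SD, n = 3), 4517 ± 3565 CPM (SD, n = 3) and 5867 ± 833 CPM (SD, n = 4). All 3 groups overlapped in spleen, and the old groups spread over a wider range than the young group. In lung the share was 919, 129 and 809 CPM in 4F-induced old, 424, 1016 and 402 CPM in untreated old, and 251, 217, 272 and 305 CPM in young. Every untreated old lung lay above every young lung, while one 4F-induced old lung lay below them all. Without the leading Ighv and the leading Igkv segment of each library, untreated old lungs held 202, 683 and 321 CPM, against 235, 205, 255 and 287 CPM in young lungs, and the groups overlapped. In the spleens the same subtraction left 713, 4866 and 1601 CPM in 4F-induced old, 716, 1629 and 5618 CPM in untreated old, and 4781 to 6581 CPM in young.

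**Figure D1:**
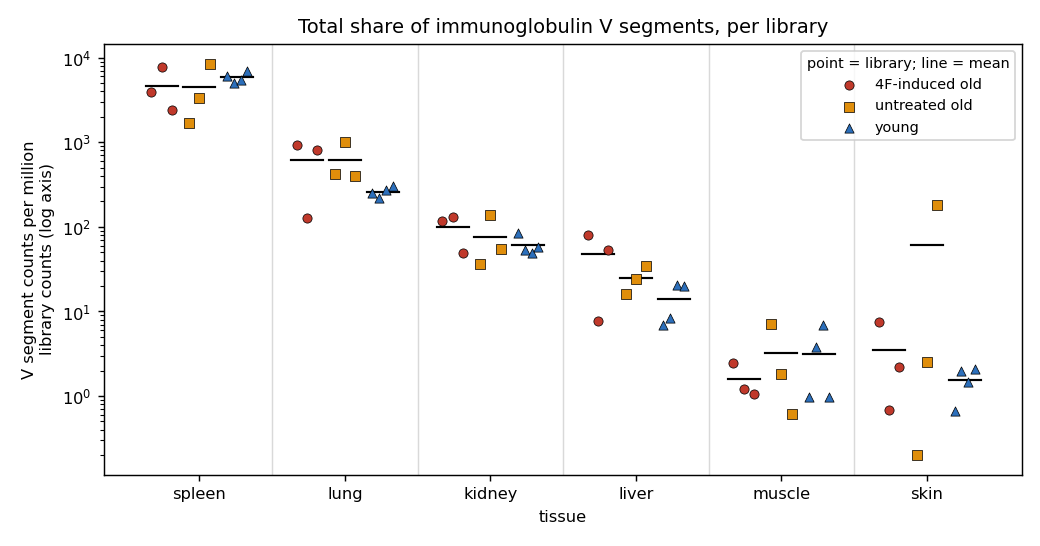
V segment CPM of library counts (log axis) by tissue. Each point is a library, horizontal lines are group means, and 4F-induced old, untreated old and young stand from left to right in each tissue. Young spleens lie between 5049 and 6948 CPM, and skin untreated old 3, at 182 CPM, stands far above the other skins.

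In kidney the V share was 117, 130 and 49.2 CPM in 4F-induced old, 36.4, 137 and 55.0 CPM in untreated old, and 85.5, 53.2, 48.8 and 57.4 CPM in young. In liver it was 81.2, 7.70 and 53.4 CPM in 4F-induced old, 16.2, 24.2 and 34.5 CPM in untreated old, and 6.85, 8.36, 20.7 and 19.8 CPM in young. The groups overlapped in both tissues. Muscle held 1.05 to 2.49 CPM in 4F-induced old, 0.607 to 7.16 CPM in untreated old and 0.968 to 6.92 CPM in young. Skin held 0.676 to 7.59 CPM in 4F-induced old, 0.200 to 182 CPM in untreated old and 0.670 to 2.11 CPM in young, and without skin untreated old 3 the untreated old range ended at 2.51 CPM.

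Single segments dominated every old spleen and no young spleen. The leading Ighv segment took 27.7%, 10.2% and 69.9% of Ighv counts in 4F-induced old spleens, 76.3%, 20.1% and 30.8% in untreated old spleens, and 4.91%, 5.85%, 6.68% and 5.43% in young spleens. The leading Igkv segment took 88.7%, 48.3% and 28.4% of Igkv counts in 4F-induced old, 47.1%, 63.8% and 36.6% in untreated old, and 5.35%, 5.64%, 8.62% and 5.63% in young. Neither old group overlapped the young group at either locus, and the 2 old groups overlapped each other. The exact (Clopper-Pearson) 95% binomial interval, which covers counting error only, ran from 26.4 to 29.0% for the 27.7% of 4F-induced old 1, the old spleen with the fewest Ighv counts (4472). Without untreated old 2, the spleen with pancreatic transcripts, the other untreated old spleens still lay above young at both loci. Counted per kilobase of exon, the leading Ighv share was 9.05 to 68.0% in 4F-induced old, 20.9 to 75.8% in untreated old and 4.90 to 6.97% in young.

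**Figure D2:**
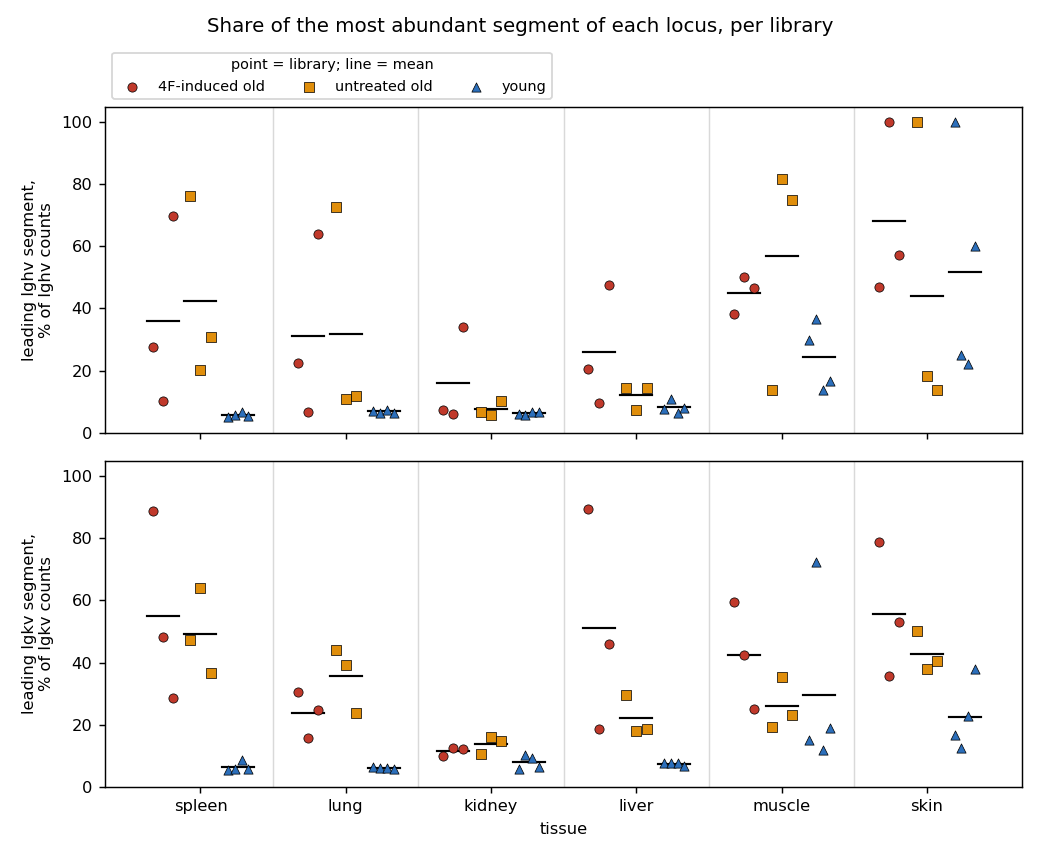
Share of the leading Ighv (upper panel) and Igkv (lower panel) segment in the counts of its locus, in percent, by tissue and group. Each point is a library and lines are group means. Young spleens and lungs reach at most 8.62%, while every old spleen lies at 10.2% or higher for Ighv and at 28.4% or higher for Igkv. Muscle and skin percentages rest on few counts.

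The leaders differed between old spleens. In 4F-induced old 1 Igkv14-111 stood at 3112 CPM, against 163 to 244 CPM in young spleens, and Ighv1-76 led the heavy chain at 74.2 CPM, against 8.55 to 44.6 CPM in young. Heavy chain segments made up only 6.87% of V counts in that spleen, against 32.5 to 35.5% in young spleens. In 4F-induced old 2 the leaders were Ighv5-9 and Igkv5-39, at 192 and 2685 CPM, against 17.7 to 33.1 and 59.7 to 98.2 CPM in young. In 4F-induced old 3 Ighv3-8 stood at 643 CPM, against 26.1 to 46.7 CPM in young spleens, and Igkv3-2, its leading kappa segment, at 174 CPM, against 42.2 to 155 CPM in young. In untreated old 1 Ighv1-78 and Igkv4-57-1 stood at 540 and 457 CPM, against 4.79 to 9.64 and 13.7 to 28.0 CPM in young. In untreated old 2 Ighv2-3 and Igkv5-39 stood at 186 and 1496 CPM, against 9.06 to 22.5 CPM for Ighv2-3 in young. In untreated old 3 Ighv5-9-1 and Igkv5-39 stood at 765 and 2146 CPM, against 12 to 36.3 CPM for Ighv5-9-1 in young. The 6 old spleens had 6 different Ighv leaders and 4 different Igkv leaders.

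For 9 of 11 leaders with at least 20% of their locus in an old spleen, the share of the nearest relative stood below its young range. It stood within that range for Igkv3-2 in 4F-induced old 3 and Ighv2-3 in untreated old 2. Leaders are counted here per library and locus, so a segment that led several spleens counts each time. Shares of a locus have a fixed sum, so a dominant leader lowers the shares of other segments, alike or not. The low shares of nearest relatives therefore cannot be tied to their likeness to the leader. Whether other segments fell below their young ranges as often was not tested. In 4F-induced old spleen 1 Igkv14-126 held 0.0734% of Igkv counts beside the 88.7% of Igkv14-111, against 1.03 to 2.57% in young spleens. In 4F-induced old spleen 3 Ighv3-6 held 0.426% of Ighv counts beside the 69.9% of Ighv3-8, against 4.29 to 6.68% in young. In untreated old spleen 1 Ighv1-77 held 0.0219% beside the 76.3% of Ighv1-78, against 0.101 to 0.450% in young.

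The young spleens used much the same segments in much the same proportions. Ighv9-3 or Ighv3-6 led in 3 of the 4 young spleens and Ighv5-17 in the other, and Igkv1-110 or Igkv14-111 led the kappa locus in all 4. The 5 most abundant Ighv segments together held 19.4 to 25.05% of Ighv counts in young spleens, against 31.5 to 83.1% in 4F-induced old and 49.0 to 82.4% in untreated old. The effective number of segments (inverse Simpson index, the number of equally abundant segments that would give the same concentration) put this on one scale. It was 9.43, 30.5 and 2.02 for Ighv in 4F-induced old spleens, 1.71, 13.4 and 8.14 in untreated old, and 46.6, 44.4, 43.4 and 50.1 in young. For Igkv it was 1.27, 4.15 and 6.87 in 4F-induced old, 3.88, 2.35 and 6.31 in untreated old, and 39.0, 40.7, 35.7 and 37.7 in young. The old and young spleens did not overlap at either locus.

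**Figure D3:**
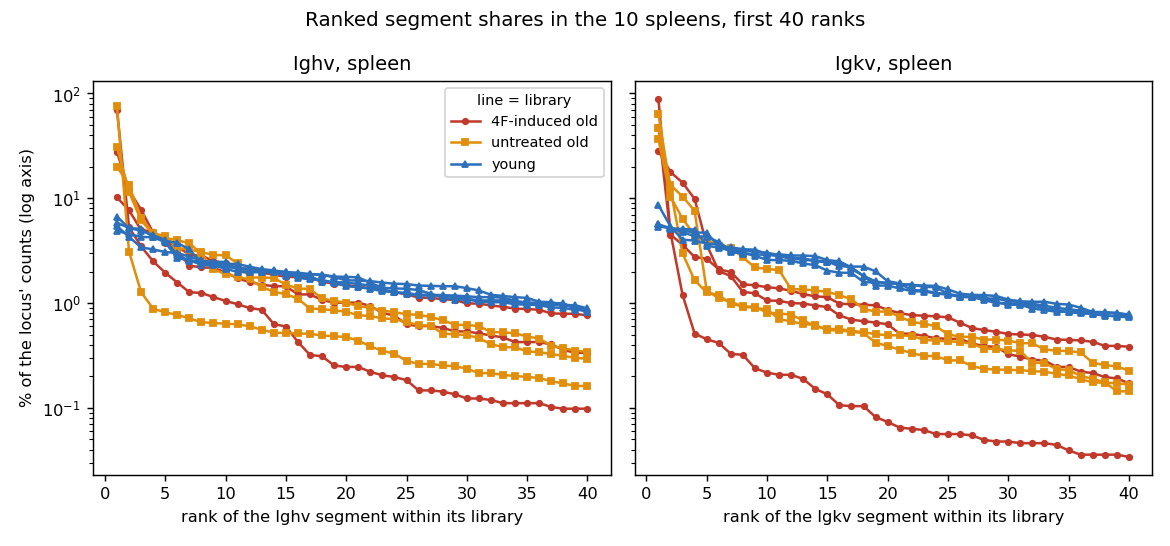
Share of each segment in its locus (log axis, %) against its rank within the library, for the first 40 ranks of Ighv (left) and Igkv (right). Each line is 1 spleen. The 4 young spleens lie almost on top of each other and start between 4.91 and 8.62%, while the 6 old spleens start between 10.2 and 88.7%.

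Constant region genes, which encode the rest of each antibody chain, and B cell markers varied with these libraries. The IgA gene Igha stood at 26447 CPM in 4F-induced old spleen 1, against 10443 to 22191 CPM in young spleens, and at 459 to 5664 CPM in the 5 other old spleens. The IgG3 gene Ighg3 stood at 8551 CPM in untreated old spleen 1, the spleen led by Ighv1-78, against 233 to 996 CPM in all other spleens. The lambda gene Iglc1 stood at 3318 CPM in 4F-induced old spleen 3, against 114 to 953 CPM in the others. The germinal centre genes Rgs13 and S1pr2 stood at 169 and 382 CPM in 4F-induced old spleen 1, against 0 to 80.2 and 12.1 to 120 CPM in the other spleens. The 12 B cell markers summed to 4759 to 7490 CPM in 4F-induced old spleens, 2183 to 2960 CPM in untreated old and 5376 to 6958 CPM in young, and none of the 12 was at 0 in any spleen. The 12 plasma cell markers summed to 2057 to 10136 CPM, 2462 to 4609 CPM and 4541 to 6920 CPM in the same order of groups. The part of these cell types in the V segment results was not tested.

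Lambda segments were a minor fraction except in one set of libraries. They made up 3.18, 3.87 and 36.6% of V counts in 4F-induced old spleens, 2.08, 1.35 and 2.17% in untreated old and 6.08, 7.15, 6.37 and 4.89% in young. Iglv1 held 97.3% of the lambda counts in 4F-induced old spleen 3, against 44.4 to 66.5% in the other spleens. In the lung, liver, kidney, muscle and skin libraries numbered 4F-induced old 3 lambda made up 40.5, 22.9, 18.2, 45.2 and 60.7% of V counts, and Iglv1 held 97.9, 98.7, 96.2, 100 and 100% of it, from 9407, 314, 313, 19 and 37 lambda counts. Outside those libraries lambda exceeded 10% of V counts only in 3 muscle or skin libraries, each with at most 215 V counts.

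The number of V segments with at least 1 count was 186, 209 and 193 in 4F-induced old spleens, 199, 208 and 207 in untreated old, and 211, 211, 212 and 212 in young, of 216. Neither old group overlapped the young group. Thinned to 55192 V counts, the smallest total among the spleens, the expected numbers were 183.4, 206.4 and 191.6 in 4F-induced old, 199.0, 204.5 and 201.4 in untreated old, and 208.5 to 209.2 in young, and old and young still did not overlap. In lung 177 to 201 segments were detected in 4F-induced old, 168 to 200 in untreated old and 185 to 192 in young. Thinned to 3246 V counts these became 143.6 to 177.0, 134.5 to 165.5 and 174.4 to 179.4, and untreated old lungs then lay below every young lung. Liver libraries held 90 to 116, 114 to 132 and 84 to 134 segments in the same order of groups. Kidney libraries held 149 to 195, 133 to 189 and 161 to 175. Muscle libraries held 12 to 23, 9 to 36 and 18 to 64 segments. Skin libraries held 7 to 16, 4 to 150 and 13 to 33 segments, the 150 in untreated old 3.

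In lung the kappa locus was dominated by single segments in every old library. The leading Igkv share was 30.6, 15.8 and 24.6% in 4F-induced old, 44.0, 39.3 and 23.8% in untreated old, and 6.43, 5.91, 6.17 and 5.84% in young, with no overlap between either old group and young. Its leaders were Igkv4-91, Igkv14-126 and Igkv3-2 in 4F-induced old 1, 2 and 3, and Igkv4-57-1, Igkv3-2 and Igkv3-2 in untreated old 1, 2 and 3. The leading Ighv share was 22.4, 6.79 and 64.1% in 4F-induced old, 72.6, 10.9 and 11.9% in untreated old, and 7.12, 6.39, 7.40 and 6.50% in young. The untreated old lungs lay above the young lungs, and the 4F-induced old group overlapped young through the 6.79% of Ighv11-2 in library 2, from 766 Ighv counts. The effective number of Igkv segments was 7.66, 22.8 and 12.3 in 4F-induced old, 4.39, 5.503 and 9.22 in untreated old and 33.8 to 39.8 in young.

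Liver and kidney held fewer V counts. The leading Igkv share in liver was 89.3, 18.6 and 45.9% in 4F-induced old, 29.5, 18.0 and 18.8% in untreated old, and 7.77, 7.69, 7.79 and 6.61% in young, without overlap between old and young. The leading Ighv share in liver was 20.6, 9.72 and 47.5% in 4F-induced old, 14.5, 7.47 and 14.4% in untreated old, and 7.69, 10.9, 6.49 and 7.84% in young, and the groups overlapped. Ighv counts in liver were 72 to 461 in 4F-induced old, 193 to 313 in untreated old and 78 to 262 in young. In kidney the leading Igkv share was 9.81 to 12.5% in 4F-induced old, 10.7 to 16.1% in untreated old and 5.66 to 10.2% in young, where 4F-induced old overlapped young and untreated old did not. The leading Ighv share there was 7.28, 6.13 and 34.2% in 4F-induced old, 6.69, 5.59 and 10.3% in untreated old and 5.70 to 6.83% in young. Both old groups overlapped young, and Ighv3-8 held the 34.2%.

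Muscle and skin were too thinly counted to rank segments. Muscle libraries held 4 to 44 Ighv counts and skin libraries other than untreated old 3 held 1 to 22, so that a single segment can take 100% of a locus. Skin 4F-induced old 1 had 155 Igkv counts, of which Igkv14-126 took 78.7% (95% interval 71.4 to 84.9%). Skin untreated old 3, with 2966 Igkv counts, was led by Igkv5-39 at 40.6% and Igkv1-110 at 30.3%. Muscle young 2 had 94 Igkv counts, of which Igkv16-104 took 72.3%.

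Several leaders recurred in different tissues of the same number. Sample titles are numbered, and each 6 consecutive numbers (a block) span the 6 tissues within one group and one sex, so that libraries of 1 group with the same number here come from 1 block. The labels do not say whether a block is one animal. Ighv3-8 led spleen, lung, liver and kidney of 4F-induced old 3, with 69.9, 64.1, 47.5 and 34.2% of Ighv counts, and Igkv3-2 led the kappa locus in the same 4 libraries with 28.4, 24.6, 45.9 and 12.3%. Ighv1-78 led spleen and lung of untreated old 1 with 76.3 and 72.6%, and also its liver with 14.5%, while Igkv4-57-1 led the same spleen and lung with 47.1 and 44.0%. In lung Ighv1-78 stood at 100 CPM in that library, against 0.0397 to 0.619 CPM in 4F-induced old, 0.381 and 1.75 CPM in the other untreated old and 0.116 to 0.607 CPM in young lungs. Ighg3 stood at 1470 CPM in the same lung, against 0.572 to 37.7 CPM in the others. Igkv14-111 led spleen and liver of 4F-induced old 1 with 88.7 and 89.3% and was second in its lung with 13.7%. In kidney, by contrast, the segments leading the untreated old 1 spleen were minor, at 2.68% of Ighv counts for Ighv1-78 and 1.53% of Igkv counts for Igkv4-57-1 in untreated old 1. At each locus the spleen's leader also led the lung of its block in 1 of 3 pairs in each old group. It led the kidney in 1 of 3 pairs in 4F-induced old and 0 of 3 in untreated old. In liver these counts were 2 and 1 of 3 for Ighv, and 3 and 2 of 3 for Igkv. In old lungs, kidneys and livers of other blocks it led in 0 of 6 pairs per group and locus, with 1 exception. For Igkv in untreated old livers it led in 2 of 6. In young kidneys the spleen's Ighv leader led in 0 of 4 pairs of 1 block and 5 of 12 pairs of different blocks.

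**Figure D4:**
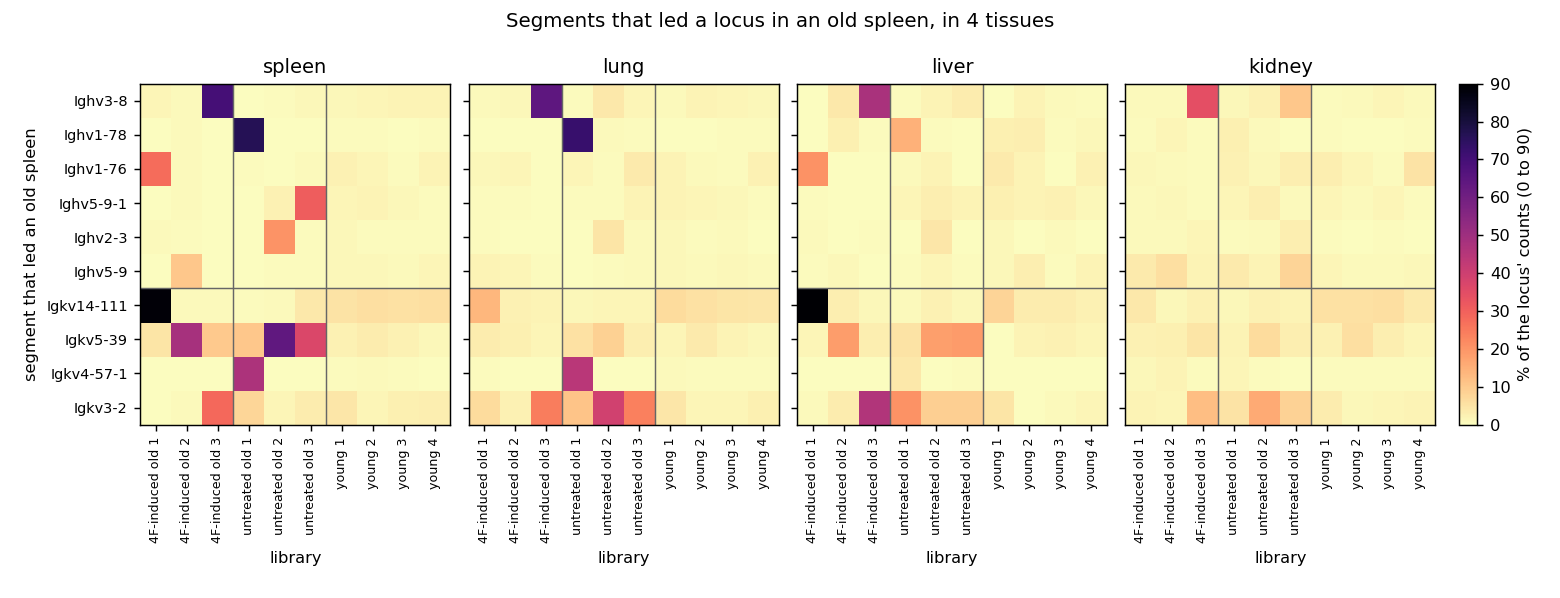
Share of 10 segments in the counts of their locus (colour, 0 to 90%) in the spleen, lung, liver and kidney libraries. Rows are the 6 Ighv and 4 Igkv segments that led a locus in an old spleen, and columns are libraries, with 4F-induced old, untreated old and young from left to right. Ighv3-8, Ighv1-78 and Igkv14-111 are dark in libraries of the same number across tissues, while Igkv5-39 and Igkv3-2 are raised in several old libraries, and the young columns are pale throughout.

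Overlap of whole segment profiles is the sum over segments of the smaller of 2 shares. For spleens against lungs, livers and kidneys its median was higher within a block than between blocks at both loci. In every old set the 2 ranges overlapped. Between old spleens and old kidneys the Igkv overlap was 12.5 to 43.2% (median 38.6) within blocks and 8.67 to 46.2% (median 32.5) between them. Between old spleens and old lungs the Ighv overlap was 44.0 to 90.2% (median 55.8) for the 6 pairs of 1 block and 14.3 to 52.6% (median 23.6) for the 30 pairs of different blocks. Between young spleens and young lungs it was 83.7 to 84.4% (median 84.1) for 4 pairs of 1 block and 72.6 to 79.2% (median 75.8) for 12 pairs of different blocks. Between old spleens and old livers the Igkv overlap was 32.1 to 94.4% (median 60.7) within blocks and 8.62 to 54.2% (median 29.2) between them. Among spleens alone, pairs of old spleens shared 13.7 to 47.7% of Ighv usage (median 20.3, 15 pairs), against 76.8 to 81.4% (median 80.2, 6 pairs) for pairs of young spleens. Without spleen untreated old 2 the old spleen and lung medians for Ighv were 58.8% within blocks and 23.3% between them, and pairs of old spleens shared 13.7 to 45.6% of Ighv usage (median 20.3, 10 pairs). Pairs of 1 block also share group and sex, while pairs of different blocks can differ in either, so these cannot be told apart from the block. Pairs share libraries, so the ranges are descriptions.

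**Figure D5:**
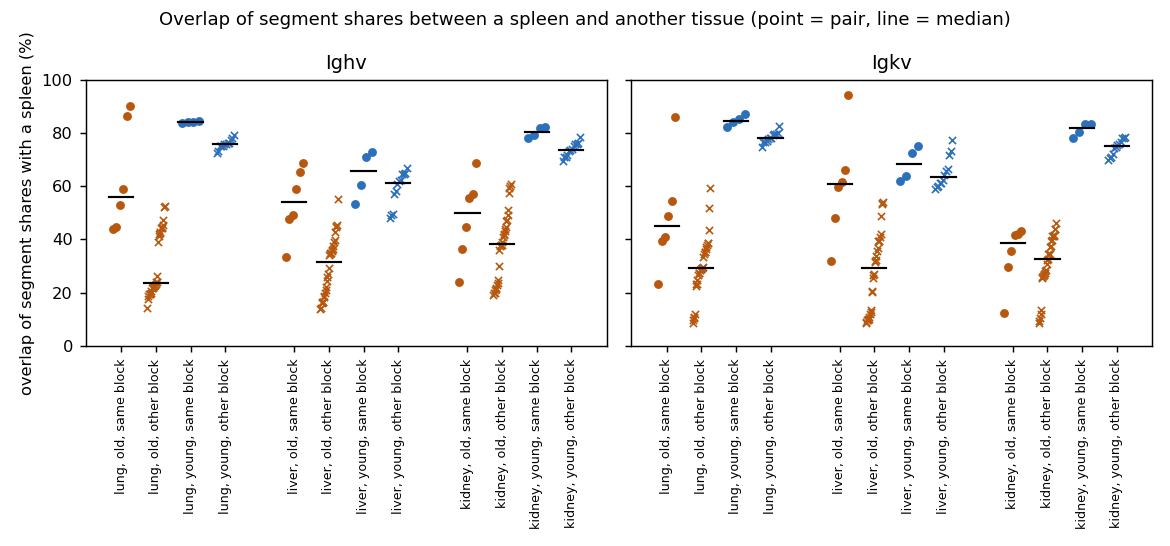
Overlap of segment shares (%) between a spleen and a lung, liver or kidney library for Ighv (left) and Igkv (right). Each point is a pair of libraries, circles are pairs from 1 block, crosses are pairs from different blocks, old pairs include both old groups, and lines are medians. The within-block medians lie above the between-block medians in all 12 sets, and the young lung and kidney pairs lie at 69.4% or higher.

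Igkv5-39 and Igkv3-2 each led the kappa locus in several old libraries of more than 1 block. Igkv5-39 held 4.73, 48.3 and 9.88% of Igkv counts in 4F-induced old spleens, 10.4, 63.8 and 36.6% in untreated old spleens and 2.23, 3.39, 2.12 and 1.38% in young spleens, without overlap between old and young. In CPM it stood at 166, 2685 and 60.5 in 4F-induced old, 101, 1496 and 2146 in untreated old and 80.2, 98.2, 70.1 and 59.7 in young spleens, and on this scale the 4F-induced old group overlapped young. The difference of untreated old from young in spleen was a log2 change of 4.19 (SE 1.31) that did not pass (edgeR adjusted p = 0.103). It passed in liver and in lung, as given below. Leading shares were not tested, because they are scores over the members.

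Segments typical of B-1 cells, a self-renewing lineage of body cavities known for particular germline receptors, were high in some old libraries of both groups. Ighv11-2 held 5.28, 6.79 and 0.0373% of Ighv counts in 4F-induced old lungs, 0.0904, 0.0810 and 0.872% in untreated old and 0.171 to 0.347% in young. Igkv14-126, its usual partner, held 9.39, 15.8 and 0.519% of Igkv counts in 4F-induced old lungs, 0.854, 0.239 and 1.73% in untreated old and 1.19 to 2.24% in young. Both were high in 4F-induced old lungs 1 and 2 and low in library 3. Igkv4-91, the partner of Ighv12-3, stood at 206 CPM in 4F-induced old lung 1, against 2.54 to 7.57 CPM in the other lungs. In edgeR's quasi-likelihood fit over all genes Ighv11-2 differed between 4F-induced old and young lungs by a log2 change of 4.28 (SE 1.37, adjusted p = 0.0541), which did not pass. In spleen Ighv11-2 held 1.95% of Ighv counts and Igkv14-126 4.49% of Igkv counts in 4F-induced old 2, and 6.15% and 6.39% in untreated old 3, against 0.157 to 0.442% and 1.03 to 2.57% in young spleens. In liver Ighv11-2 held 2.58, 2.78 and 0% in 4F-induced old, 12.4, 0 and 8.95% in untreated old and 0 to 0.763% in young, from at most 28 counts. Igkv14-126 held 0.629, 7.56 and 0.506% of Igkv counts in 4F-induced old livers, 29.5, 1.21 and 12.3% in untreated old and 0 to 1.15% in young. Both were high in untreated old livers 1 and 3.

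Single segments were tested in a fit over all genes of each tissue (edgeR's quasi-likelihood test with sex as covariate, two-sided, Benjamini-Hochberg adjusted p under 0.05), from which the members' rows were read. A filter on low counts left 206 members in spleen, 162 in lung, 121 in kidney, 33 in liver, 6 in skin and 4 in muscle. Replicates are separate libraries that the labels do not tie to separate animals, so the p-values measure the spread between these libraries.

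For 4F-induced old minus untreated old, the comparison that asks what induction changed in old mice, no member passed in any tissue. At an unadjusted p under 0.05 there were 10 members in spleen, 19 in lung, 11 in kidney, 6 in liver, 2 in skin and 0 in muscle. These were 4.85, 11.7, 9.09, 18.2, 33.3 and 0% of the members tested, beside 12.7, 7.51, 5.66, 18, 6.03 and 6.36% of all genes at the same unadjusted threshold. DESeq2, run without the low-count filter, called 4, 3, 1, 1, 21 and 1 in the same order. In the edgeR fit 0.00517% of all genes tested passed in spleen, 0.00593% in muscle and 0% in lung, kidney, liver and skin. The median log2 change over members was 0.37 in spleen (all genes -0.01) and 0.01 in lung, with standard errors of single dominant segments such as Igkv14-111 in spleen at 2.60.

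For untreated old minus young, which asks what differs with age, 3 members were higher and 1 lower in lung, where 8.37% of all genes tested passed as higher, 9.35% as lower and 17.7% in either direction. Igkv6-20 stood at 6.10, 13.4 and 55.5 CPM in untreated old lungs, against 0.789, 0.347, 0.702 and 1.07 CPM in young lungs, and the groups did not overlap. It rose by a log2 change of 4.97 (SE 0.61, adjusted p = 0.00377) and passed without any one of the 10 lung libraries. Its near relative Igkv6-29 had at most 3 counts in any lung. Igkv3-2 stood at 30.4, 310 and 69.5 CPM in untreated old lungs, against 7.01, 1.93, 2.49 and 5.26 CPM in young lungs, a rise of 5.02 (SE 1.15, adjusted p = 0.0226). Igkv5-39 stood at 15.2, 68.9 and 8.61 CPM, against 2.72, 4.93, 2.94 and 2.25 CPM in young lungs, a rise of 2.74 (SE 0.82, adjusted p = 0.04997). Igkv5-37 fell by 3.89 (SE 1.12, adjusted p = 0.0446), with 4 counts in all untreated old lungs together and 135 in young lungs, of which young 4 held most at 3.61 CPM. Igkv3-2, Igkv5-39 and Igkv5-37 passed in 5, 2 and 2 of the 10 fits that left out 1 library. The fits without any one of the young lungs called 1 member each, and those without untreated old 1 or 2 called 9.

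In liver 4 members rose and none fell in untreated old against young, where 5.37% of all genes tested passed as higher and 7.91% in either direction. None of the 4 exceeded 0.274 CPM in a young liver, so the low-count filter kept them through old libraries. Members kept that way could hardly be called lower, and their shared direction is no separate result. Igkv5-39 stood at 0.536, 2.92 and 4.69 CPM in untreated old livers, against 0, 0.0961, 0.274 and 0.190 CPM in young, a rise of 4.09 (SE 0.77, adjusted p = 0.0405). Igkv14-126 stood at 3.09, 0.197 and 3.08 CPM, against 0, 0.0320, 0.0914 and 0.126 CPM in young, a rise of 4.91 (SE 1.12, adjusted p = 0.0451). Igkv3-2 stood at 2.14, 1.46 and 2.27 CPM, against 0 to 0.190 CPM in young, a rise of 4.61 (SE 1.14, adjusted p = 0.0477). Ighv14-3 stood at 0.0255, 0.0562 and 1.25 CPM, against 0 to 0.0914 CPM in young, and although it rose in the fit by 3.99 (SE 0.63, adjusted p = 0.0290) the groups overlapped. All 4 lost their call in every fit that left out a young liver, in the fit without untreated old 1 and in the fit without 4F-induced old 3. In kidney Ighv10-1 fell by 2.72 (SE 0.59, adjusted p = 0.0331), with 0.0690, 0.0644 and 0.131 CPM in untreated old and 0.803, 0.421, 0.374 and 0.433 CPM in young, where 2.41% of all genes tested passed as lower and 6.12% in either direction. Its call held without each of the 4F-induced old kidneys and in no fit that left out an untreated old or a young one.

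In spleen no member passed in untreated old against young, although 187 of 206 had a log2 change below 0 (median -2.04, all genes 0.04) and 72 (35%) had an unadjusted p under 0.05, beside 28.2% of all genes. DESeq2 called 64 members there, and the edgeR fits without 4F-induced old 1 and without 4F-induced old 2 called 18 and 53. In the main edgeR fit 0.274% of all genes tested passed the adjusted threshold. That share is no background for the 64, 18 and 53, which come from other fits. Within the fit, segments abundant in young spleens had negative changes, such as Igkv1-117 at -2.37 (SE 1.19, adjusted p = 0.221) and Ighv5-17 at -1.67 (SE 0.92, adjusted p = 0.254). Iglv1 had -2.40 (SE 0.61, adjusted p = 0.0793). Muscle and skin had 0 members called by edgeR, where 16.1% and 0% of all genes tested passed. At an unadjusted p under 0.05 there were 0 and 1 members (34.2% and 16% of all genes). DESeq2 called 0 and 2.

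For 4F-induced old minus young, which shares the young libraries with the age comparison, 4 members rose in lung and none fell, where 10.5% of all genes tested passed as higher and 22.4% in either direction. Iglv1 stood at 27.8, 5.41 and 321 CPM in 4F-induced old lungs, against 6.09, 6.01, 9.29 and 6.55 CPM in young, a rise of 3.55 (SE 1.04, adjusted p = 0.0414). Igkv6-20 stood at 2.82, 0.676 and 5.54 CPM, against 0.347 to 1.07 CPM in young, a rise of 2.17 (SE 0.60, adjusted p = 0.0326). Igkv4-69 stood at 0.464, 0.119 and 6.13 CPM, against 0 to 0.221 CPM in young, a rise of 3.89 (SE 1.19, adjusted p = 0.0469). With so few counts in young lungs, Igkv4-69 passed the low-count filter through old libraries. Ighv12-3 stood at 4.45, 0.914 and 0.139 CPM, against 0.0358 to 0.539 CPM in young, a rise of 2.31 (SE 0.72, adjusted p = 0.0496). The groups overlapped for all 4, through 4F-induced old 3 for Ighv12-3 and through 4F-induced old 2 for the others, and the 4 kept their calls in 2 to 5 of the 10 fits that left out 1 library. The fits without young lung 2, 3 or 4 called 0 members, and the fit without 4F-induced old lung 2 called 14.

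No member passed in the other tissues for 4F-induced old minus young. Over all genes tested 0% passed in spleen, 2.61% in kidney, 0.502% in liver, 19% in muscle and 0% in skin. At an unadjusted p under 0.05 there were 49 members in spleen, 17 in kidney, 8 in liver, 0 in muscle and 3 in skin. These were 23.8, 14, 24.2, 0 and 50% of the members tested, beside 12.9, 21.2, 16.3, 36.2 and 15.8% of all genes. DESeq2 called 21, 3, 5, 0 and 0. In spleen 177 of 206 members had a change below 0 (median -1.70, all genes 0.01), and 55 were called in the edgeR fit without 4F-induced old 2. The shares of all genes above are no background for these DESeq2 counts or for the 55.

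Genes of the surrounding antibody pathway were read from the same fits. Of 12 constant region genes tested in lung, 6 passed as higher in untreated old against young (Ighg3, Ighg1, Ighm, Ighe, Ighg2b and Ighg2c) and none as lower. The median log2 change was 1.77 (all genes 0.02), and 8.37% of all genes tested passed as higher. Igha went the other way without passing, at 70.4, 278 and 225 CPM in untreated old lungs, against 755, 754, 882 and 1150 CPM in young. Ighg3 rose by 8.21 (SE 1.96, adjusted p = 0.0252), with 1470 CPM in untreated old 1 and 37.7 and 7.18 CPM in the other untreated old lungs, against 0.572 to 1.89 CPM in young. In kidney 3 of 11 rose (Ighg1, Ighm and Ighg2b) and in liver 2 of 11 (Ighm and Ighg1), where 3.71% and 5.37% of all genes tested passed as higher. In 4F-induced old against young 4 of 12 rose in lung (Iglc1, Iglc2, Ighg2b and Ighg2c), 1 of 11 in kidney (Iglc2) and 1 of 11 in liver (Ighg1), where 10.5, 1.3 and 0.266% of all genes passed as higher. Cxcl13, the chemokine that draws B cells into follicles, rose with age in lung by 3.72 (SE 0.78, adjusted p = 0.0173) and in kidney by 3.16 (SE 0.45, adjusted p = 0.0111). Glycam1, a high endothelial venule glycoprotein, rose with age in lung by 4.89 (SE 0.95, adjusted p = 0.0136), at 0.788, 1.99 and 1.30 CPM in untreated old and 0 to 0.116 CPM in young. Of the other stroma and venule genes listed, Chst4 stood at 9.79, 8.18 and 5.3 CPM in untreated old lungs, against 5.2 to 9.31 CPM in young. Madcam1 stood at 0.127 to 0.166 CPM, against 0 CPM in young, and Ccl19 and Ccl21a at no more than 0.0337 CPM in any lung. In 4F-induced old lungs against young Ung, a uracil DNA glycosylase, rose by 1.44 (SE 0.31, adjusted p = 0.0144).

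Pax5 and Ebf1, factors that hold B cell identity, fell with age in spleen by 1.46 (SE 0.16, adjusted p = 0.0234) and 1.76 (SE 0.15, adjusted p = 0.0215), 2 of 12 markers tested, where 0.124% of all genes passed as lower. Ebf1 was the one gene of the list that passed between the old groups in spleen, where 0.00517% of all genes tested passed. It stood at 147, 117 and 132 CPM in 4F-induced old and 28.6, 32.9 and 27.6 CPM in untreated old, a rise of 2.09 (SE 0.16, adjusted p = 0.00726). The 12 markers summed to 4759 to 7490 CPM in 4F-induced old and 2183 to 2960 CPM in untreated old spleens, without overlap. Of 10 T cell markers, 6 rose with age in kidney, 3 in lung and 2 in liver, beside the 3.71, 8.37 and 5.37% of all genes that passed as higher. The median log2 change over V segments was -0.14 in kidney, -0.03 in lung and 0.5 in liver, a measure unlike these counts of genes called. Summed T cell markers were 85.9 to 259 CPM in 4F-induced old lungs, 147 to 403 CPM in untreated old lungs and 70.2 to 140 CPM in young lungs. Their part in the V segment results was not tested. In lung 5 of 12 markers of other tissues also rose with age (Alb, Apoa1, Kap, Prss2 and Cela1) and 3 fell (Adipoq, Plin1 and Myh6), with Alb at 263, 608 and 15.1 CPM in untreated old and 1.07 to 2.35 CPM in young, and the part of such transcripts in the lung results was not tested. The recombination genes Rag1 and Rag2, which join V segments in developing B cells, stood at 0 to 2.03 CPM in every spleen.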

How the data were processed

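RNA was extracted with RNeasy kits and made into libraries with the TruSeq Stranded Total RNA kit, per the labels' protocols. The authors deposited raw read counts per gene for 60 libraries, and the submitters' processing notes name GRCm38. Which aligner, counter, strand setting and gene annotation were used is not given in the sources used here. Without strand, overlapping genes could share reads, and reads of mutated or near-identical segments could be lost or split. Gene IDs were matched to GENCODE M21, and the unmatched rows held 0.0231% of counts.

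Library totals of 16699694 to 50698836 counts were used for CPM. A segment was detected at 1 count or more. Shares of a locus are shares of Ighv, Igkv or Iglv counts, intervals are Clopper-Pearson at 95% and cover counting error only, and thinned numbers are hypergeometric expectations. These scores over the members were described, not tested. Single segments were tested per tissue with edgeR 4.0.16 (filterByExpr, TMM, glmQLFit and glmQLFTest, all 3 groups, sex as covariate) in R 4.3.3, with Benjamini-Hochberg adjustment over all genes tested. Tests on simulated data, with 16643 to 19455 genes per tissue, were run for untreated old minus young. They recovered 42 to 58% of genes changed 2-fold and 93 to 98% of those changed 4-fold. Every simulated gene had the same fixed dispersion and the changed genes were drawn at random. These rates therefore do not measure the power for V segments, whose spread between libraries was not simulated. Alternatives were DESeq2 1.42.0, its size factors, no filter, no sex term, leaving out each library, pseudogene rows and thinning.

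All 72 pairs of replicates differed beyond sampling noise (lowest chi-square per degree of freedom 9.483). Replicates were numbered in accession order. Named were the 2 most abundant segments per locus and tissue, segments leading a locus with at least 20% in some library and their partners, up to 4 called members per tissue, comparison and direction, lambda and B-1 segments, and up to 4 called genes per other list. Nearest relatives, Ighv5-17, Igkv1-117 and genes at extreme levels in 1 library were named after their values were seen. The members and lists were chosen with earlier results of these data known. Sequences come from GENCODE M21 coding bases. One gene of the germinal centre list is not reported here.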

Additional observations from a re-analysis of the deposited data

Results flagged for a closer look

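In 7 measures, 42 groups of 4 libraries were searched for a library far from the others of its group, and 4 were found, where chance flags about 1 in 20 groups. Skin young 2 had 33 V segments detected, against 13 to 16 in the other young skins. The leading Igkv share of muscle young 2 was 72.3%, against 11.8 to 19.0% in the other young muscles. The leading Igkv share of spleen young 3 was 8.62%, against 5.35 to 5.64% in the other young spleens. The leading Igkv share of liver young 4 was 6.61%, against 7.69 to 7.79% in the other young livers.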

How the results depend on the processing

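The number of V segments called kept within 1.5 times under DESeq2's size factors in all 18 comparisons. DESeq2's own test called, for 4F-induced old minus untreated old, 1 member in kidney, 1 in liver, 3 in lung, 1 in muscle, 21 in skin and 4 in spleen. For untreated old minus young it called 3 in kidney, 17 in lung, 2 in skin and 64 in spleen, and for 4F-induced old minus young 3 in kidney, 5 in liver, 15 in lung and 21 in spleen. Without the low-count filter edgeR called 8, 15 and 22 members in kidney for the 3 comparisons in that order. It then called 8 in lung, 1 in muscle and 1 in spleen for untreated old minus young, and 1 in liver, 9 in lung and 1 in muscle for 4F-induced old minus young. Without the sex term untreated old minus young gave 0 in kidney, 2 in liver, 9 in lung and 8 in spleen. Leaving out 1 library gave, for untreated old minus young, 0 to 53 members in spleen, 1 to 9 in lung, 0 to 4 in liver and 0 to 2 in kidney. For 4F-induced old minus young it gave 0 to 55 in spleen, 0 to 14 in lung, 0 to 1 in liver and 0 to 1 in kidney. The cause of these shifts was not tested. The share of all genes called is not given for these settings, so their counts show no excess of members. Thinned to the smallest V total of the tissue, the mean number of segments detected was 146 in kidney, 50.3 in liver, 162 in lung, 8.33 in muscle and 3.05 in skin for 4F-induced old. It was 67.9 in liver and 151 in lung for untreated old, and 150 in kidney, 176 in lung, 11.5 in muscle, 4.48 in skin and 209 in spleen for young. With pseudogene rows the mean leading Ighv share of 4F-induced old muscle was 38.4%. The mean total share of each group moved by less than 1 SD under every alternative run. With 3 or 4 libraries per group, leaving out 1 cannot move a mean by 1 SD, so those runs could not show a move. The SDs of old groups were wide, and the subtraction of leaders stayed under 1 SD although it made untreated old and young lungs overlap. Counting per kilobase, the subtraction of leaders and profile overlaps without spleen untreated old 2 were chosen after seeing the data. No paired analysis was possible because the labels give the groups no shared replicate numbers. Muscle and skin hold too few V counts to rank segments.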
